A study of Mus musculus with 15 samples.

Results

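The distal convoluted tubule is the stretch of the nephron that follows the thick ascending limb and the macula densa, and its RNA was compared here between Cldn10a knockout (KO) and wild-type (WT) mouse kidneys. The 8 distal libraries, 4 WT (replicates 1 to 4) and 4 KO (replicates 5 to 8), were taken by their segment and genotype labels from a series of 15 libraries, of which the other 7 are from proximal tubule. Each distal library is a pool of about 20 tubule pieces dissected from 1 kidney after enzymatic preparation, frozen and sequenced as total RNA. Cldn10a is the isoform of the tight junction protein claudin-10 that is known from the proximal tubule. WT and Cldn10a KO are the genotypes named in the labels, with no treatment; the sources used here give no strain, age or construction of the allele. Nothing in the labels ties a library to an animal of its own, so p-values reflect only how far these samples scatter, which may be technical.

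Cells of the distal convoluted tubule reabsorb sodium chloride through the thiazide-sensitive cotransporter Slc12a3, take up magnesium through Trpm6, and are dense in mitochondria, which supply ATP to the sodium pump. In the late part of the segment and in the connecting tubule, calcium is reabsorbed with the help of the calcium-binding proteins calbindin-D28k (Calb1) and calbindin-D9k (S100g). A dissected piece can carry cells of the thick ascending limb at one end, connecting tubule and collecting duct cells at the other, and capillary endothelium on its outside. In bulk RNA, fewer cells of a type and less RNA per cell cannot be told apart.

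The distal libraries held 38330040 to 51764746 counts, and 17941 to 19880 genes had at least 1 count. The 2 mitochondrial ribosomal RNAs made up 61.1 to 71.6% of each library. Nuclear protein-coding genes made up 8.02 to 11.6%, or 3083187 to 5146378 counts. Values are CPM (counts scaled to a common library size), with scale factors from the trimmed mean of M values over the 8 distal libraries; since mitochondrial RNA is most of the total, CPM of nuclear genes are small. Libraries of the same genotype correlated across genes at r = 0.9261 to 0.9413 in WT and 0.9075 to 0.9407 in KO (log2 CPM, Pearson); the lowest values were those of KO replicate 8.

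The segment label was checked against its markers. Slc12a3 had 535, 548, 522 and 718 CPM in WT and 732, 527, 666 and 614 CPM in KO, and Pvalb, parvalbumin of the early distal convoluted tubule, had 17.1 to 26.9 and 18.3 to 27.3 CPM. The groups overlapped for both. On the scale of CPM per kilobase of exon, averaged over the 8 libraries, Slc12a3 stood at 54.7, Sgms2 at 46.6 and Wnk1 at 42.5. Genes of the late segment and connecting tubule stood higher, with Klk1 (kallikrein 1) at 2537, S100g at 2082 and Calb1 at 164. Umod, the thick limb gene for uromodulin, stood at 61.7 and Slc12a1, the thick limb sodium-potassium-chloride cotransporter, at 9.38. Defining genes of the distal convoluted tubule and of the segments on both sides were thus present in the libraries. Of podocyte genes, Nphs1 and Wt1 had 0 counts in all 8 libraries, and of immune genes Cd3e, Cd3g, Ms4a1, Nkg7, S100a8 and S100a9 did.

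Cldn10, the targeted gene (ENSMUSG00000022132; GRCm38 chromosome 14, 118787908 to 118875489), was near the limit of detection. It had 8, 3, 4 and 22 counts in WT and 0, 12, 24 and 0 counts in KO, that is 0.0595 to 0.41 CPM and 0 to 0.519 CPM. A count of 0 allows up to 0.0684 CPM in KO replicate 5 and 0.0598 CPM in KO replicate 8 (3 counts; counting error only). The genotypes overlapped, so Cldn10 reads do not separate the labels in this segment. In 1 fit of all 15 libraries the KO minus WT difference of Cldn10 was −10.66 ± 1.76 (log2, ± SE) in proximal tubule and −1.38 in distal tubule. Cldn10 counts were thus far lower under the KO label in the proximal libraries. The fit of the distal libraries alone gave −1.34 ± 1.16, and −2.31 to −0.41 without single libraries. Mean CPM in distal tubule was 0.199 in WT and 0.205 in KO, so no distal loss can be read from these counts. Counts are per gene and do not distinguish the isoforms of Cldn10, nor whether the few distal reads lie in the part that the allele removes.

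No gene passed the test between KO and WT across the distal libraries. limma called 0 of 12969 genes (0%) at a Benjamini-Hochberg adjusted p under 0.05, and the lowest adjusted p was 0.524. limma-trend and voom with sample quality weights also called 0. At an unadjusted p under 0.05 there were 925 genes (7.13%), 461 higher (3.55%) and 464 lower (3.58%) in KO. When libraries were scaled on nuclear protein-coding genes alone, that split became 626 higher and 337 lower, and the median of all genes moved from −0.01 to 0.03 (log2). The groups did not overlap for 257 genes that were higher (1.98%) and 235 that were lower (1.81%) in KO. The authors' deposited table, made with another model, lists 3 genes under an adjusted p of 0.05: the pseudogene AC134468.1 (log2 fold change 1.01, adjusted p = 0.00392), Atrx (0.80, 0.00392) and Nab1 (0.80, 0.0371). That table lists 17 genes under 0.1, among 7181 with an adjusted p. Across the 12969 genes of the limma fit, 94.4% had the same sign in the authors' deposited table.

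The 12 named genes on the higher side ranged from nuclear regulators and enzymes to mitochondrial transcripts, and none of them passed the test. They were picked among genes whose groups do not overlap, so the lack of overlap in each was set by the choice. Atrx, a chromatin remodeller that places histone H3.3, had 11.3, 12.5, 14.1 and 15.4 CPM in WT and 25.9, 17.6, 28.1 and 21.1 CPM in KO. All 4 KO libraries lay above all 4 WT libraries, with a difference of 0.78 ± 0.16 on the log2 scale (± SE throughout, n = 4 and 4; limma adjusted p = 0.524). Nab1, a co-repressor of EGR transcription factors, had 4.57, 4.12, 4.89 and 6.76 CPM in WT and 9.03, 8.09, 9.88 and 8.37 CPM in KO (0.81 ± 0.18, adjusted p = 0.582). Its KO libraries were closer to each other than its WT libraries, and the groups did not overlap. Zc3h12c, an RNA-degrading zinc finger protein, had 5.28 to 7.79 CPM in WT and 8.87 to 11.7 CPM in KO (0.65 ± 0.16). Bmpr1a, a receptor for bone morphogenetic proteins, had 12.4 to 16.8 and 18.9 to 25.0 CPM (0.56 ± 0.14). Arhgap5, a GTPase-activating protein, was the most abundant nuclear gene named on this side, with 56.9 to 73.0 CPM in WT and 75.7 to 99.1 CPM in KO (0.48 ± 0.13). Wbp4, a splicing factor, had 1.76 to 2.7 and 3.27 to 4.6 CPM (0.80), and Samd9l, an interferon-linked gene, 11 to 12.3 and 15.6 to 20.3 CPM (0.51). The cytochrome P450 gene Cyp2j11 had 24.7, 17.1, 8.44 and 22.3 CPM in WT and 31.9, 39.1, 29.5 and 26.3 CPM in KO (0.90 ± 0.23, or 0.57 without WT replicate 3).

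Lpl, lipoprotein lipase, had 23.6, 24.4, 33.1 and 38.0 CPM in distal WT and 42.6, 42.8, 39.9 and 43.7 CPM in distal KO. The log2 difference was 0.53 ± 0.15 (limma adjusted p = 0.662), with KO values within a narrower range than WT values. In 1 fit of all 15 libraries its proximal difference was 1.91, and the test of the distal minus the proximal difference gave −1.38 ± 0.33 with an adjusted p of 0.494.

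On the lower side the genes with the smallest p included endothelial and matrix genes and a calcium-binding protein, and again none passed. These 12 were also picked among genes whose groups do not overlap, so their lack of overlap was set by the choice. Habp2, a hyaluronan-binding protease, had 5.07, 5.15, 7.21 and 5.85 CPM in WT and 2.35, 3.57, 2.87 and 4.05 CPM in KO (log2 difference −0.87 ± 0.21, limma adjusted p = 0.582). Map1lc3a, the autophagosome protein LC3A, had 3.07 to 3.82 CPM in WT and 1.48 to 2.36 CPM in KO (−0.93 ± 0.23). Both sets of KO libraries lay below all WT libraries. Vamp8, a SNARE of vesicle fusion, had 11.1 to 13.2 and 6.87 to 10.2 CPM (−0.53), Rps15, a ribosomal protein, 13.3 to 16.2 and 9.11 to 13.2 CPM (−0.52), and Ndufa9, a nuclear subunit of complex I, 26.0 to 33.0 and 20.5 to 25.4 CPM (−0.42). Cyp2j6, a relative of Cyp2j11, had 30.4 to 39.7 CPM in WT and 21.6 to 28.6 CPM in KO (−0.45 ± 0.14), so these P450 genes, both on chromosome 4, differed in opposite directions. Btbd2 (−0.87), and Pabpc4, a poly(A)-binding protein (−0.72), complete the 12 lower genes with Eng, Sparc, Bgn and S100g, which are described with their cell types.

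Mitochondrial messenger RNAs stood higher in KO than in WT. The mitochondrial genome encodes 13 proteins of the respiratory chain and ATP synthase, 2 ribosomal RNAs and 22 transfer RNAs, all made from long precursor transcripts that are cut apart. All 13 protein genes had log2 differences above 0 (49.1% of all genes did), with a median of 0.23 against −0.01 for all genes. Of the 13, 5 were higher at an unadjusted p under 0.05 (3.55% of all genes were). The groups did not overlap for 4, all higher in KO (1.98% of all genes were), and limma called 0. Reads of the 13 genes per 100 reads of nuclear protein-coding genes numbered 128, 127, 130 and 130 in WT and 160, 163, 141 and 153 in KO. Every KO library lay above every WT library, with means of 128 ± 1.39 and 154 ± 9.78 (SD, n = 4 each), a ratio of 1.2. As a share of all counts, which mitochondrial ribosomal RNA dominates, the groups overlapped, at 10.3 to 15% in WT and 11.3 to 15.4% in KO.

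**Figure D1:**
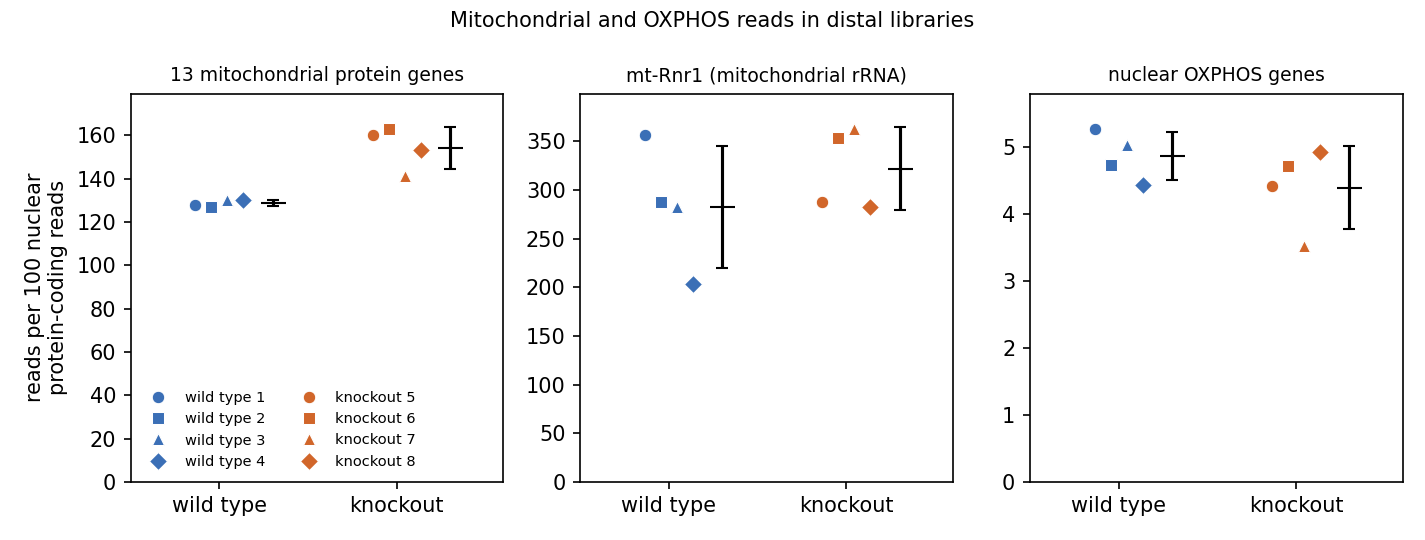
Reads of the 13 mitochondrial protein genes (left), of mt-Rnr1 (middle) and of nuclear oxidative phosphorylation genes (right) per 100 nuclear protein-coding reads (y axes, from 0), by genotype. Each point is 1 distal library and the black mark is the mean ± SD (n = 4). On the left the KO libraries lie at 141 to 163 and the WT libraries at 127 to 130; in the other panels the groups overlap.

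The largest of these differences were those of complex I subunits, but mt-Nd1 and mt-Nd3, also of complex I, were among the smallest. mt-Nd4l had 1581, 1880, 1923 and 2355 CPM in WT and 2657, 2532, 2604 and 3411 CPM in KO, 0.54 ± 0.13 higher in KO on the log2 scale (limma adjusted p = 0.582). mt-Nd4, which shares its transcript with mt-Nd4l, had 9797 to 13542 CPM in WT and 14929 to 16254 CPM in KO (0.41 ± 0.12, adjusted p = 0.662). For both, WT replicate 1 was the lowest library and the groups did not overlap. mt-Nd5 had 5078, 6728, 7005 and 8422 CPM in WT and 10016, 8798, 8731 and 8621 CPM in KO (0.43 ± 0.13). mt-Cytb, the cytochrome b of complex III, had 10152 to 11605 CPM in WT and 12038 to 14150 CPM in KO (0.26 ± 0.11). mt-Nd2 (0.32) and mt-Nd6 (0.28, or 0.12 without WT replicate 1), which is encoded on the opposite strand, overlapped between the groups. The smallest differences were those of mt-Co3 (0.12), mt-Nd3 (0.13), mt-Nd1, mt-Co1 and mt-Atp8 (0.15 each); without WT replicate 2, mt-Co3 and mt-Nd3 were at −0.06 and −0.01. mt-Co2 (0.21) and mt-Atp6 (0.23) lay between.

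**Figure D2:**
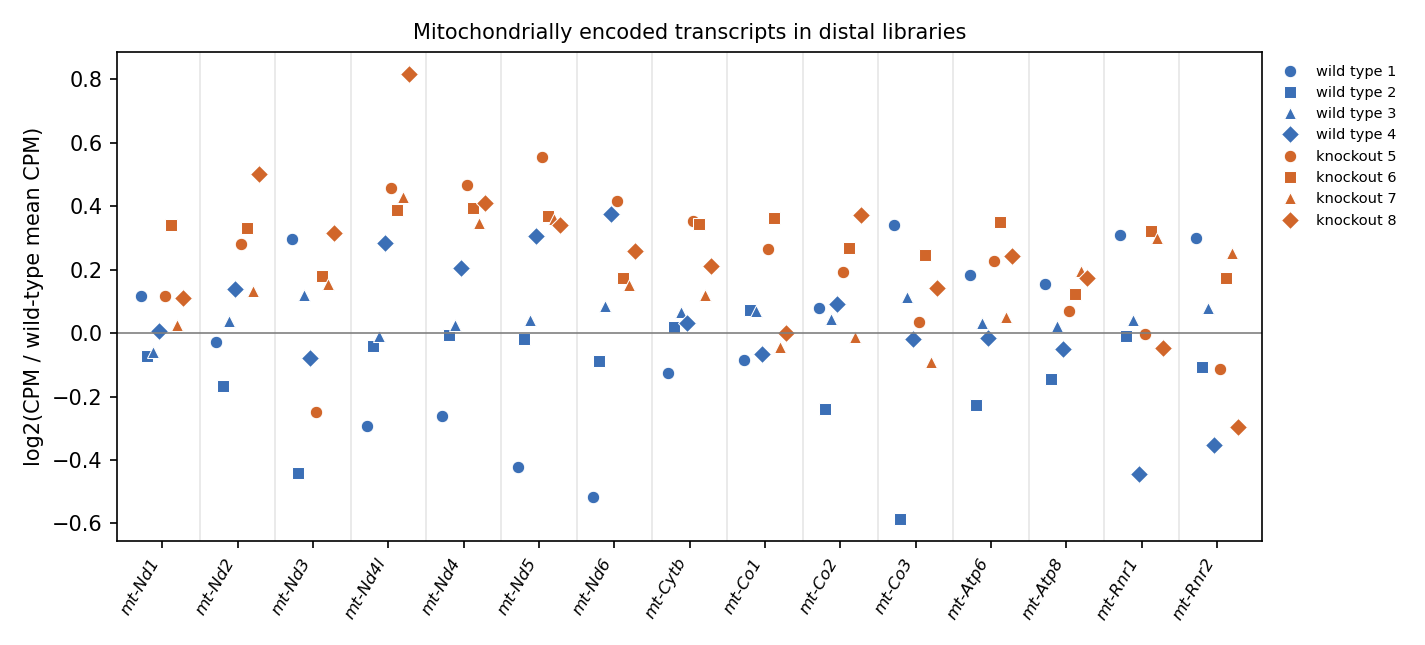
Level of each mitochondrial protein gene and ribosomal RNA (x axis) in each distal library, as log2 of its CPM over the mean CPM of the WT libraries (y axis). The KO libraries (orange) lie above all WT libraries (blue) for mt-Cytb and, among complex I genes, mt-Nd4, mt-Nd4l and mt-Nd5, and the groups overlap for the others, including mt-Rnr1 and mt-Rnr2.

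The mitochondrial ribosomal RNAs did not separate the genotypes. mt-Rnr1 (12S) had 357, 288, 283 and 203 reads per 100 nuclear protein-coding reads in WT and 288, 354, 363 and 283 in KO, a log2 difference of 0.17 ± 0.14 on the CPM scale, and mt-Rnr2 (16S) differed by 0.03 ± 0.14. Without the filter on low counts, these differences were −0.04 and −0.17. mt-Rnr2 reads per mt-Rnr1 read were 1.5, 1.41, 1.55 and 1.6 in WT and 1.4, 1.36, 1.46 and 1.27 in KO, overlapping by 1 library of each genotype. Of the 22 transfer RNAs, 15 had enough counts to be tested, 11 of them with a difference above 0 (median 0.27, or 0.12 without KO replicate 8). mt-Tl1, a leucine tRNA encoded next to mt-Rnr2, had 0.686 to 1.02 CPM in WT and 1.25 to 2.37 CPM in KO (0.85 ± 0.32, adjusted p = 0.67).

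Part of the mitochondrial genome is also present in the nuclear genome, and the deposited counts register both. On chromosome 1 of GRCm38, near 24612407, a run of unprocessed pseudogenes copies the stretch from mt-Co1 to mt-Nd4. The pair with the highest log2 difference is shown to let the copies be compared: mt-Nd4l (chromosome M, 9877 to 10173, + strand) and Gm10222 (chromosome 1, 24612407 to 24612700, − strand), both 5′ to 3′ from the GENCODE transcripts, with the bases that only mt-Nd4l has in capitals.
mt-Nd4l: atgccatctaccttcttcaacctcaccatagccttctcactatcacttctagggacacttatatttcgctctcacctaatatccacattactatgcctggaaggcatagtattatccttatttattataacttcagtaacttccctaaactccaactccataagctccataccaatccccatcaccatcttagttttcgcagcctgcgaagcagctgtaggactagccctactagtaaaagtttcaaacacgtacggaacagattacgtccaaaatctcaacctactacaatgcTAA
Gm10222: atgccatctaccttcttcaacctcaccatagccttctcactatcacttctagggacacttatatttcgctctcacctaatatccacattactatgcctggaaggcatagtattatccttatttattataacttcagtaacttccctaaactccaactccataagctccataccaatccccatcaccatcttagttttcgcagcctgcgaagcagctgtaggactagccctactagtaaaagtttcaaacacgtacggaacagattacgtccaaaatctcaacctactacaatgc
All 294 bases of Gm10222 were identical to mt-Nd4l. In every library Gm10222 had 1.01 times the count of mt-Nd4l, and its log2 difference was 0.54 as well. The same held for Gm28661, identical to mt-Co2 over 681 bases (1.03 times the count), and Gm28437, identical to mt-Co3 over 783 bases (1.01 times). Reads that fit both places thus appear under both names, and which of them made the RNA cannot be read from these counts. Together 6 such copies took 4.88 to 7.19% of all counts.

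The mitochondrial difference was as large for genes without a copy in that run. mt-Nd1 shared no stretch of 31 bases with any other annotated transcript, and mt-Cytb, mt-Nd6, mt-Nd2 and mt-Nd5 shared 6.55, 7.36, 13.5 and 16.8% of theirs with transcripts elsewhere. Reads of these 5 genes per 100 nuclear protein-coding reads, with Lars2 left out, numbered 37.4, 38.1, 38.4 and 41.3 in WT and 48.9, 49, 44.6 and 46.6 in KO, a ratio of 1.22. The KO libraries again lay above all WT libraries. Lars2, which encodes the mitochondrial leucyl-tRNA synthetase, was left out because it took 2.03 to 5.86% of nuclear protein-coding counts by itself. Without it, reads of all 13 genes numbered 131 to 137 in WT and 147 to 170 in KO.

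Nuclear genes of oxidative phosphorylation lay mostly on the other side of 0. Of 79 nuclear genes of oxidative phosphorylation, 10 had a difference above 0 and 69 below (median −0.16). At an unadjusted p under 0.05 there were 9, all lower (3.58% of all genes were), and limma called 0. Their median exon length was 1718 bases, and other short nuclear genes were lower too. Of the 2186 nuclear protein-coding genes with the shortest exons, 33.8% were above 0 (median −0.11) and 138 were lower at that p. Ndufs7, a core subunit of complex I, had 14.4, 15.0, 15.1 and 16.6 CPM in WT and 12.3, 11.1, 8.78 and 12.7 CPM in KO (−0.46 ± 0.15, limma adjusted p = 0.67). Ndufv1, another core subunit, had 25.0 to 28.5 and 17.9 to 23.3 CPM (−0.38), and Uqcrh of complex III 86.4 to 96.8 and 62.4 to 87.1 CPM (−0.35). Mitochondrial protein reads per read of these nuclear genes were 24.3, 26.8, 25.7 and 29.3 in WT and 36.1, 34.7, 40.1 and 31.1 in KO, without overlap. KO replicate 7 held the lowest nuclear value, 3.52 reads per 100 against 4.42 to 4.92 in the other KO libraries and 4.43 to 5.27 in WT; without it the list's median was −0.06. The 76 mitochondrial ribosomal proteins had a median of −0.14 (−0.06 without KO replicate 7), with 2 lower and 0 higher at an unadjusted p under 0.05. Genes that transcribe and maintain mitochondrial DNA had a median of 0.05 (34 genes), which changed sign under 4 of 15 alternatives. Among them Ppargc1a, a co-activator of mitochondrial biogenesis, had 64.7, 55.6, 55.7 and 63.1 CPM in WT and 81.2, 61.2, 86.6 and 80.2 CPM in KO (0.37 ± 0.13, adjusted p = 0.67). KO replicate 6 lay within the WT range and the other KO libraries lay above it.

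Cytosolic ribosomal protein genes and chromatin genes differed in opposite directions, along with their exon length. Of 80 ribosomal protein genes, 74 were below 0 (median −0.21, or −0.12 without KO replicate 7). Of these, 10 had an unadjusted p under 0.05 (3.58% of all genes were lower at it), and 0 were called. Rplp1 had 17.6 to 23.1 CPM in WT and 13.6 to 17.9 CPM in KO (−0.38), and Rpl8 18.9 to 24.9 and 14.7 to 20.2 CPM (−0.38). Of 30 chromatin remodelling genes, 24 were above 0 (median 0.21), 4 with an unadjusted p under 0.05 (3.55% of all genes were higher at it). Besides Atrx these were Smarca5, the motor of ISWI complexes, with 6.63 to 7.79 CPM in WT and 8.57 to 11.7 CPM in KO (0.45 ± 0.15), and the histone methyltransferases Kmt2c (0.42) and Ash1l (0.34). The median exon length was 1776 bases for the ribosomal genes, 1718 for the oxidative phosphorylation genes and 10746 for the chromatin genes.

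Nuclear protein-coding genes as a whole followed the same order by length, a pattern picked for description with the values in view. In the bin with the shortest exons (258 to 2636 bases, 2186 genes) the median log2 difference was −0.11 and 33.8% of genes were above 0. In the middle bin of 5 it was −0.01 with 48.9%, and in the bin with the longest exons (7974 to 123179 bases) 0.11 with 66.7%. Of genes at an unadjusted p under 0.05, the shortest bin held 29 higher and 138 lower, and the longest 173 higher and 29 lower. KO replicate 7 departed furthest from the other libraries, at −0.18 for the shortest and 0.21 for the longest bin relative to each gene's mean, and WT replicate 1 departed the other way, at 0.10 and −0.11. Without KO replicate 7 the medians of the shortest and longest bins were −0.06 and 0.06. Of the cell type lists described below, the median exon length was 6227 bases for distal convoluted tubule genes and 4263 for thick ascending limb genes. It was 3117 for connecting tubule and calcium genes, 2991 for principal cell genes, 2569.5 for intercalated cell genes and 4844.5 for endothelial genes. Among the 12 higher genes, Atrx has 21757 bases of exon, Arhgap5 10887 and Lpl 10478. Among the 12 lower genes, S100g has 480 and Rps15 630. Of the nuclear genes named there, Cyp2j11 (1917 bases, higher) and Bgn (6099 bases, lower) went against the order by length. The part of this length pattern in the list medians and in single genes was not tested. The mitochondrial protein genes, with a median length of 784 bases, are not in these bins, which hold nuclear genes only.

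**Figure D3:**
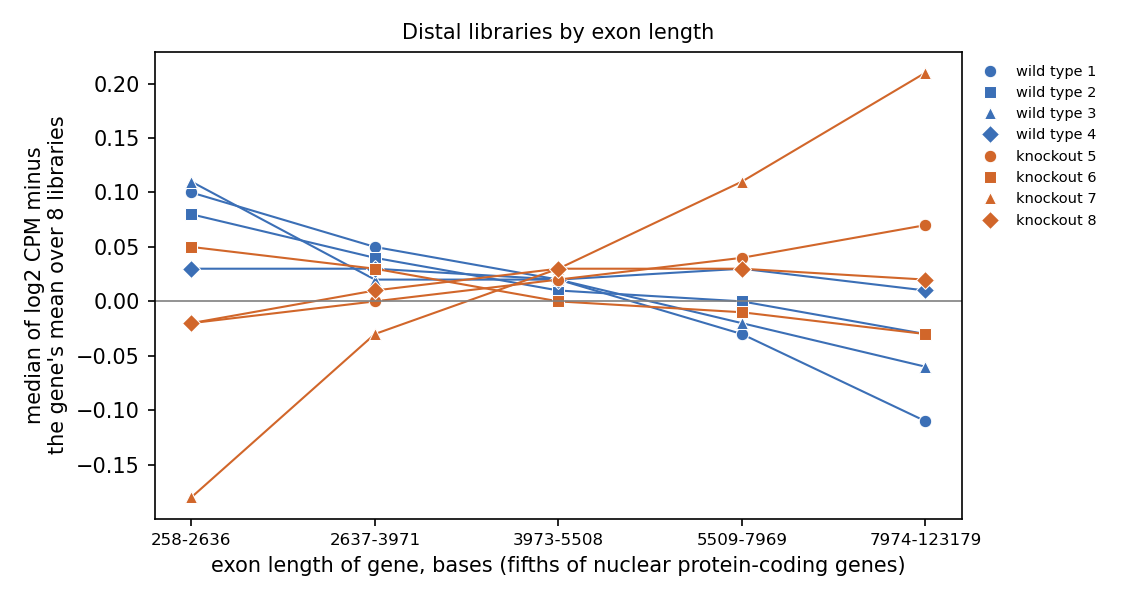
Median over genes of log2 CPM minus the gene's mean over the 8 libraries (y axis), for nuclear protein-coding genes in 5 equal bins of exon length (x axis, bases), with 1 line per distal library. From the shortest to the longest bin, KO replicate 7 climbs from −0.18 to 0.21 and WT replicate 1 descends from 0.10 to −0.11.

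Marker genes of the distal convoluted tubule itself lay mostly above 0. Of 19, 15 were above 0 (median 0.13, from 0.07 without KO replicate 5 to 0.23 without WT replicate 4). At an unadjusted p under 0.05, 4 were higher and 0 lower (3.55 and 3.58% of all genes were), and 0 were called. Trpm6, the magnesium channel of the segment, had 25.4, 24.7, 28.1 and 37.4 CPM in WT and 43.0, 34.3, 34.4 and 33.5 CPM in KO (0.34 ± 0.14, limma adjusted p = 0.681). WT replicate 4 overlapped with the KO libraries. Slc16a7, a monocarboxylate transporter, had 276, 279, 287 and 317 CPM in WT and 356, 337, 323 and 362 CPM in KO (0.25 ± 0.11, adjusted p = 0.681), without overlap. Abca13 had 581 to 703 and 606 to 1027 CPM (0.32, or 0.18 without KO replicate 7), and Prox1, a transcription factor, 10.1 to 11.7 and 10.3 to 16.4 CPM (0.34). Genes that control sodium chloride cotransport had a median of 0.04 (24 genes) and magnesium handling genes 0.08 (16 genes); at an unadjusted p under 0.05 the former held 2 higher and 1 lower and the latter 2 higher. The kinase Wnk1 had 712, 912, 895 and 1027 CPM in WT and 1189, 944, 1035 and 1049 CPM in KO (0.26 ± 0.12). Trpm7, the ubiquitous relative of Trpm6, had 47.5 to 70.3 and 66.8 to 139 CPM (0.52 ± 0.19), with KO replicate 7 far above the rest; without it the difference was 0.28. Subunits of the sodium pump and its FXYD regulators had a median of −0.14 (7 genes). The 10 claudins tested had a median of −0.08 that changed sign under 5 of 15 alternatives, and junction genes beyond claudins a median of −0.00 (26 genes).

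Genes of the thick ascending limb, the segment before, stood higher in KO. Of 13 tested, 11 were above 0 (median 0.21) and 3 were higher at an unadjusted p under 0.05 (3.55% of all genes were). The list's summed level was 384 to 587 CPM in WT and 488 to 648 CPM in KO, and Cldn14 had 0 counts. Slc12a1 had 47.1, 32.5, 10.6 and 67.2 CPM in WT and 61.5, 51.7, 109 and 53.0 CPM in KO (1.02 ± 0.35, limma adjusted p = 0.67). WT replicate 3 was the lowest and KO replicate 7 the highest, and without single libraries the difference ran from 0.48 to 1.39. Umod had 97.6, 127, 127 and 223 CPM in WT and 203, 189, 235 and 164 CPM in KO (0.52 ± 0.18). Ptger3, a prostaglandin receptor, had 2.83, 1.98, 1.74 and 3.22 CPM in WT and 2.42, 4.93, 4.73 and 5.08 CPM in KO (0.80 ± 0.27). Relative to the segment's own cotransporter, Slc12a1 reads per 100 Slc12a3 reads were 8.82, 5.94, 2.03 and 9.37 in WT and 8.4, 9.8, 16.4 and 8.64 in KO. The groups overlapped for each of these measures. The list's median was 0.62 without WT replicate 4 and 0.14 without WT replicate 3.

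Genes of the segments that follow stood lower in KO. Of 14 connecting tubule and calcium genes, 12 were below 0 (median −0.13, from −0.24 without WT replicate 1 to −0.06 without WT replicate 3). At an unadjusted p under 0.05, 3 were lower (3.58% of all genes were). S100g, whose protein buffers calcium on its way through the cell, had 1061, 1107, 1583 and 1000 CPM in WT and 776, 955, 635 and 876 CPM in KO (−0.54 ± 0.15, limma adjusted p = 0.662), without overlap. Calb1 had 718, 793, 1134 and 820 CPM in WT and 706, 972, 595 and 614 CPM in KO (−0.27 ± 0.16), with KO replicate 6 inside the WT range. The calcium channel Trpv5 (−0.03) and the exchanger Slc8a1 (−0.01) differed least. Hsd11b2, which protects the mineralocorticoid receptor from glucocorticoids, had 26.0, 35.1, 50.4 and 39.2 CPM in WT and 8.44, 39.7, 25.9 and 29.5 CPM in KO (−0.71 ± 0.30). Water channel genes of principal cells were low in every library: Aqp2 had 0.931 to 6.01 CPM in WT and 0.411 to 3.37 CPM in KO (−1.22 ± 0.55), and Aqp3 2.43 to 4.02 and 0.456 to 2.51 CPM (−0.99 ± 0.37). Without KO replicate 5 the differences of Hsd11b2, Aqp2 and Aqp3 were −0.25, −0.71 and −0.43. Of 9 principal cell genes, 8 were below 0 (median −0.43, or −0.13 without KO replicate 5). Aqp2, Hsd11b2, Scnn1b and Scnn1g are on both this list and the connecting tubule list, so these lists are not independent.

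Intercalated cells, which secrete acid or base and lie scattered among the cells of the late distal tubule, gave lower values in KO as well. Of 18 genes, 16 were below 0 (median −0.33) and 7 were lower at an unadjusted p under 0.05 (3.58% of all genes were). For 4 the groups did not overlap, all lower in KO (1.81% of all genes were), and 0 were called. The summed level was 276 to 348 CPM in WT and 187, 302, 269 and 263 CPM in KO. Aqp6, a channel of intercalated cell vesicles, had 5.52, 6.84, 5.74 and 7.02 CPM in WT and 3.58, 5.5, 4.39 and 3.91 CPM in KO (−0.56 ± 0.18, limma adjusted p = 0.67). Slc4a9, a transporter of base-secreting cells, had 15.1 to 19.4 and 7.96 to 17.0 CPM (−0.48, or −0.28 without KO replicate 5), Slc26a4, pendrin of the same cells, differed by −0.41, and Slc4a1, the exchanger of acid-secreting cells, by −0.36. KO replicate 5 was the lowest library for the list, and without it the median was −0.15.

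Endothelial genes lay on 1 side of 0. All 20 were tested and all 20 were below 0 (median −0.37), 8 of them at an unadjusted p under 0.05 (3.58% of all genes were lower at it). For 3 the groups did not overlap, all lower in KO (1.81% of all genes were), and 0 were called. Their summed level was 97.5, 130, 140 and 125 CPM in WT and 94.7, 104, 91.8 and 91.5 CPM in KO. WT replicate 1 lay among the KO libraries. Eng, the co-receptor endoglin, had 4.09, 4.44, 6.47 and 5.9 CPM in WT and 2.94, 3.85, 2.42 and 2.75 CPM in KO (−0.82 ± 0.21, limma adjusted p = 0.582). Flt1, a VEGF receptor, had 10.7, 11, 11.7 and 10.4 CPM in WT and 9.37, 8.07, 8.02 and 8.51 CPM in KO (−0.37 ± 0.14), and Cd34 1.86 to 2.28 and 0.737 to 1.82 CPM (−0.81). The list's median lay between −0.48 and −0.33 when single libraries were left out. Matrix genes of stromal cells had the same direction: Sparc had 10.4, 11.6, 13.3 and 8.96 CPM in WT and 8.05, 7.36, 6.18 and 6.8 CPM in KO (−0.63 ± 0.16), and Bgn, biglycan, 3.18 to 4.36 and 1.45 to 2.79 CPM (−0.79 ± 0.24). Over the 8 tested genes of fibroblasts, pericytes and smooth muscle the median was −0.60 (−0.31 without WT replicate 4 and −0.88 without WT replicate 3), on a summed level of 22.4 to 41.2 CPM in WT and 21.8 to 26.3 CPM in KO, and Lum had 0 counts.

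**Figure D4:**
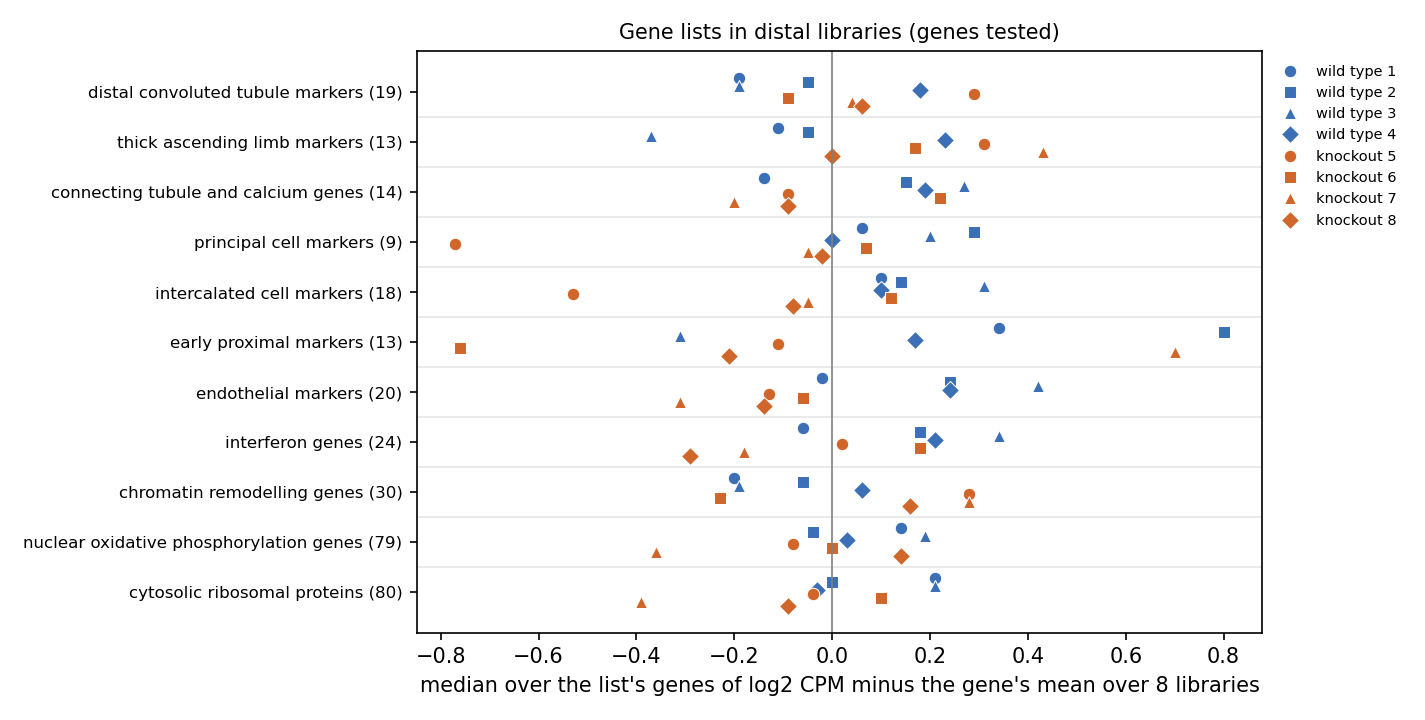
For each gene list (y axis, number of genes tested in brackets), the median over its genes of log2 CPM minus the gene's mean over the 8 libraries (x axis), with 1 point per distal library. For endothelial genes the KO libraries lie at −0.31 to −0.06 and the WT libraries at −0.02 to 0.42; KO replicate 5 is lowest for principal and intercalated cell genes and KO replicate 7 for oxidative phosphorylation and ribosomal genes.

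Other cell types left few reads. Early proximal tubule genes summed to 29.3 to 37.6 CPM in WT and 23.6 to 31.1 CPM in KO, with 8 of 21 too low to test, Slc34a3 at 0 counts and a median of −0.35 over the other 13, which was −0.60 without KO replicate 7 and −0.15 without KO replicate 6. Genes of the straight proximal segment had a median of −0.22 (7 genes), and the sign changed without KO replicate 5. Macula densa genes had a median of 0.16 (4 genes), thin limb genes −0.17 (3 genes), podocyte and parietal genes −0.70 (4 genes) and immune genes −0.35 (6 genes), which turned to 0.19 without KO replicate 5. Without KO replicate 7 the thin limb median was −0.07, and without WT replicate 2 that of the macula densa was 0.06. Red blood cell genes were too low to test; they summed to 0.0597, 0.258, 0 and 0.186 CPM in WT and 1.37, 1.06, 0.151 and 6.24 CPM in KO. The part of these other cells in the differences of single genes was not tested.

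Interferon-linked and stress genes showed no called gene. Of 24 interferon genes, 19 were below 0 (median −0.39, or −0.24 without KO replicate 8). At an unadjusted p under 0.05, 3 were lower and 1 higher (3.58 and 3.55% of all genes were). Ifitm3, which blocks virus entry, had 6.83 to 9.18 CPM in WT and 4.32 to 6.68 CPM in KO (−0.54 ± 0.18, limma adjusted p = 0.67), and the class I antigen H2-D1 had 10.0 to 12.7 and 6.31 to 9.52 CPM (−0.43). Usp18, a brake on interferon signalling, had 0.119 to 0.503 and 0.346 to 0.917 CPM (1.26). Immediate early and stress genes had a median of −0.01 (20 genes) and tubular injury genes −0.12 (10 genes), among which Spp1, osteopontin, had 294 to 387 CPM in WT and 274 to 361 CPM in KO. Medians were −0.06 for autophagy and lysosome genes (24 genes), −0.13 for endoplasmic reticulum stress genes (21 genes) and 0.02 for potassium and chloride channels (19 genes).

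Clock genes differed widely between libraries of the same genotype. The core activator Arntl (Bmal1) had 0.448, 0, 2.81 and 4.12 CPM in WT and 0.0912, 3.32, 0.0432 and 0.618 CPM in KO. WT replicates 3 and 4 and KO replicate 6 were thus high and the other 5 libraries low. Its repressor Per3 had 0.865, 3.09, 0.0223 and 0.261 CPM in WT and 2.87, 0.327, 3.85 and 0.976 CPM in KO, and the output gene Dbp 0.925, 1.98, 0.112 and 0.335 CPM and 1.55, 0.0503, 1.28 and 0.777 CPM. Those genes were lowest in the same 3 libraries in which Arntl was highest. Nr1d2, a repressor of Arntl, had 13, 21, 4.24 and 2.7 CPM in WT and 22, 3.44, 27.7 and 9.21 CPM in KO, with the same order. Over 18 clock genes the median difference was 0.18, which changed sign without KO replicate 5, WT replicate 3 or WT replicate 4. No time of day is given in the labels for any library, and its part in other differences was not tested. These per-library patterns were picked for description with the values in view.

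**Figure D5:**
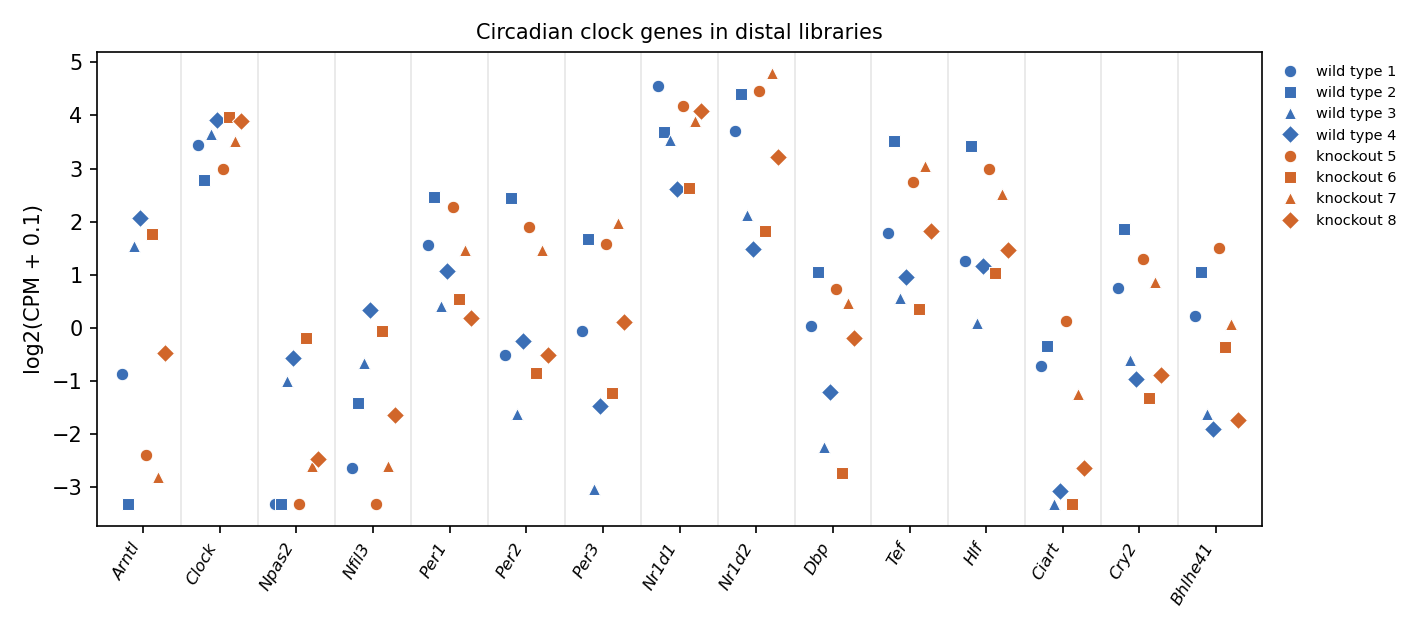
Level of clock genes (x axis) in each distal library, as log2(CPM + 0.1) (y axis). For Arntl, WT replicates 3 and 4 and KO replicate 6 lie at 2.81 to 4.12 CPM and the others at 0.618 CPM or less, while for Per3, Dbp and Nr1d2 those 3 libraries are the lowest.

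Neighbours of Cldn10 on chromosome 14 were examined because genes near a targeted locus can differ with the chromosome they came on. Of 19 tested, 12 were above 0 (median 0.11, or 0.01 without WT replicate 3), 2 were higher and 1 lower at an unadjusted p under 0.05. Tmtc4, an enzyme of the endoplasmic reticulum (chromosome 14, from 122918971), had 1.76, 1.84, 1.36 and 1.69 CPM in WT and 3.01, 2.61, 3.7 and 3.43 CPM in KO, 0.94 ± 0.23 higher in KO on the log2 scale (limma adjusted p = 0.582), without overlap. Slc15a1, a peptide transporter (from 121459621), had 1.58, 1.8, 0.96 and 0.615 CPM in WT and 0.57, 0.302, 0.389 and 0.239 CPM in KO (−1.62 ± 0.49). Abcc4, an organic anion exporter that starts at 118482692, had 2.6, 4.32, 4.15 and 6.28 CPM in WT and 6.41, 5.15, 6.66 and 9.86 CPM in KO (0.69 ± 0.24), and its groups overlapped. In 1 fit of all 15 libraries the proximal differences were 0.78 ± 0.23 for Tmtc4, −1.79 ± 1.33 for Slc15a1 and 1.26 ± 0.22 for Abcc4. Each had the same direction as in the distal libraries, though the error for Slc15a1 was wide. These genes were named for their low p in the distal fit. Over the whole of chromosome 14, 39 of 447 genes, or 8.72%, had an unadjusted p under 0.05, against 7.13% of all genes. Of these, 26 were higher and 13 lower in KO, against 461 higher and 464 lower over all genes.

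A family of genes with near-identical sequence, annotated as miRNA, was lower in KO. These genes are predicted ones, outside the rule for naming, and were picked with their values in view. Whether their reads come from small RNAs or from longer RNAs that hold the same sequence was not tested. Gm24187 (chromosome 13, 9834469 to 9834525, − strand) had 1220, 1097, 992 and 1101 CPM in WT and 637, 790, 888 and 352 CPM in KO (−0.80 ± 0.19, limma adjusted p = 0.582), without overlap. Gm23935 (chromosome 16, 11144125 to 11144181, + strand) had 8303, 7139, 7055 and 6187 CPM in WT and 4269, 5525, 6212 and 1434 CPM in KO (−0.91 ± 0.28). Both sequences are shown, from the GENCODE transcripts on GRCm38, since 1 base tells them apart: G11A, from Gm23935 to Gm24187, counted from 1 at the 5′ end, in capitals.
Gm23935: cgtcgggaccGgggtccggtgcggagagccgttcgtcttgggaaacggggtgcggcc
Gm24187: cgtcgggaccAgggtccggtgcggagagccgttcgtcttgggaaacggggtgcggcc
Gm24270 on chromosome 9 and Gm24245 on chromosome 4 are identical to Gm23935 over all 57 bases, so reads of the family cannot be assigned to 1 gene. Together 5 genes of the family took 1.15, 1.21, 1.08 and 1.21% of counts in WT and 0.688, 0.761, 0.873 and 0.284% in KO. Every KO library lay below every WT library, and KO replicate 8 was lowest. Without that library the differences were −0.44 for Gm23935 and −0.53 for Gm24187. The ribosomal RNA gene CT010467.1 (chromosome 17, 39846353 to 39848827) took 2.18 to 2.67% in WT and 1.77, 1.93, 1.94 and 0.587% in KO (−0.72 on the log2 scale of CPM, or −0.24 without KO replicate 8, again the lowest), and Lars2 had 2890 to 5389 CPM in WT and 1836 to 3794 CPM in KO. These shares describe the makeup of each library, and their part in the differences of other genes was not tested.

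The distal differences were set against those of the proximal libraries with a test of the difference between segments. limma called 0 of 15279 genes (0%) for it, with 849 (5.56%) at an unadjusted p under 0.05, of which 483 were more negative (3.16%) and 366 more positive (2.4%) in distal tubule. Endothelial genes had a median of −0.37 in distal and 0.57 in proximal tubule; 19 of 20 were more negative in distal tubule, 12 of them at an unadjusted p under 0.05, with a lowest adjusted p of 0.494. Flt1 differed between segments by −1.10 (adjusted p = 0.544) and Adgrf5, an endothelial adhesion receptor, by −1.35 (0.606). The 13 mitochondrial protein genes had a median of 0.23 in distal and −0.12 in proximal tubule; all 13 were more positive in distal tubule, 5 of them at an unadjusted p under 0.05, with a lowest adjusted p of 0.805. Straight proximal genes had a median of −0.24 in distal and 1.13 in proximal tubule (15 genes). Ribosomal protein genes were below 0 in both, with medians of −0.21 and −0.28, as were nuclear oxidative phosphorylation genes (−0.16 and −0.29). None of these lists held a gene called for the difference between segments.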

How the data were processed

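Total RNA of 8 distal libraries was used. Nextera XT libraries were prepared from column-purified RNA, per the labels. Per the submitters' processing notes, CASAVA 1.8, STAR 2.5, DESeq2 1.24.0 and the build GRCm38 were used. How reads were counted (program, annotation, strand) is not given in the sources used here; reads of overlapping, antisense and copied genes are therefore uncertain. The authors deposited a table of whole-number counts per gene and library with 54752 genes. GENCODE M21 gave symbols to 54723, and 27817 had no count in the distal libraries. Its columns are named by digits, which kept it from being registered as counts, so its unit was recorded as other and limma was used rather than a count model. The authors also deposited a distal table with a log2 fold change and a p-value, raw and adjusted, for each gene, used only where named. The direction is not stated in it; as deposited, its signs match KO over WT in the counts for 94.4% of tested genes.

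limma 3.58.1 (R 4.3.3) with voom (log2 CPM, prior count 0.5) was fitted to all genes with at least 10 counts, scaled to the median library, in at least 4 libraries and a total of at least 15; Cldn10 was kept regardless and left out of list counts. Scaling used trimmed means of M values (30% of ratios and 5% of levels trimmed). p-values were adjusted over all genes tested (Benjamini-Hochberg), and the difference between segments was fitted over all 15 libraries. The fit was tested on simulated data. Lists are described by counts and medians. Some genes that these rules select are not reported here. Named genes are Cldn10; the 12 higher and 12 lower genes with the smallest p among those with a mean of at least 2 CPM, no overlap of the groups and no predicted or clone symbol; all mitochondrial protein and ribosomal RNA genes; Slc12a3 and Pvalb; in each list, as many as 4 genes of lowest p; and genes called in an alternative fit. Members of lists that are named beyond these (Slc26a4, Slc4a1, Trpv5, Slc8a1, Calb1, Sgms2, Klk1, Arntl and Dbp), and Lars2 and the chromosome 1 copies, were picked with their values in view. The members and lists were chosen with earlier results of these data known. Alternatives were other scalings, filters and weights, a single fit over 15 libraries, a threshold of 0.1 on adjusted p and leaving out each library.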

Additional observations from a re-analysis of the deposited data

Results flagged for a closer look

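In 11 of 196 groups of 4 libraries tested, 1 library stood apart from the other 3 by Dixon's criterion, which chance meets in about 1 group in 20. KO replicate 8 had 3410.7 CPM of mt-Nd4l against 2531.7 to 2656.5 in the other KO libraries, and 3438.9 CPM of its copy Gm10222, whose counts follow those of mt-Nd4l. The same library had 0.587% of its counts on the ribosomal RNA gene CT010467.1, against 1.77 to 1.94%. KO replicate 5 had 10015.8 CPM of mt-Nd5, against 8620.9 to 8798.1. KO replicate 6 had 184 Calb1 reads per 100 Slc12a3 reads, against 89.4 to 100, and a summed level of 274 CPM over endoplasmic reticulum stress genes, against 192 to 203. KO replicate 7 had 20.3 CPM of Samd9l, against 15.6 to 15.7. Among WT libraries, replicate 4 had 718 CPM of Slc12a3, against 522 to 548, and 1195.7 CPM summed over magnesium handling genes, against 854 to 902. WT replicate 2 had 9839.5 CPM of mt-Co2, against 11989.7 to 12384.0, and 131 reads of mitochondrial protein genes per 100 nuclear protein-coding reads with Lars2 left out, against 136 to 137.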

How the results depend on the processing

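No distal gene was called under median-of-ratios scaling, scaling on nuclear protein-coding genes, the stricter filter, sample quality weights, limma-trend, a single fit over 15 libraries, a threshold of 0.1 on adjusted p, or without any single library (lowest to highest count 0 to 0). With no filter on low counts 4 of 26935 genes were called: mt-Nd4 (log2 difference 0.37, adjusted p = 0.00271), mt-Nd4l (0.52, 0.0335) and their chromosome 1 copies Gm28439 (0.37, 0.0335) and Gm10222 (0.52, 0.0335); genes at an unadjusted p under 0.05 then numbered 1625 against 925. Leaving out single libraries gave 725 (without WT replicate 3) to 1208 (without KO replicate 6). For the difference between segments, 1 gene was called with no filter, CAAA01141682.2 (−6.41), and 0 to 1 without single distal libraries; the 1 was Gsta4 (2.32, adjusted p = 0.0169), without KO replicate 7. Signs changed for mt-Rnr1 (−0.04) and mt-Rnr2 (−0.17) with no filter, and without single libraries for mt-Rnr2 (−0.09 to 0.13), mt-Co3 (−0.06 to 0.25), mt-Nd3 (−0.01 to 0.24), Slc9a2 (−0.00 to 0.26) and Bmp3 (−0.05 to 1.02); the cause was not tested. The other genes reported by the naming rule kept their sign; Trpv5, Slc8a1, Arntl, Dbp and Gm28437 (the copy of mt-Co3), picked with their values in view, changed sign without single libraries. In all, 2305 of 2319 alternative values kept both sign and side of the threshold. Of 510 alternative list medians, 492 moved by less than the spread between libraries and 18 by more. The planned count-model test was not run, because the unit of the table was recorded as other. No paired analysis was possible because the WT replicates are numbered 1 to 4 and the KO replicates 5 to 8, so no number is shared. Depth limits genes such as Cldn10, which had at most 24 counts in a library.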
